A study of Mus musculus with 2 samples.

Results

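The killer lectin-like receptor genes, whose mouse symbols start with Klr, were read out in RNA sequencing of Th1 cells from mice labelled as wild type or as Chi3l1 knockout. The members were all rows with such a symbol, which gave 36 of the 24421 rows in each table. The rule used the symbol only and no measured value.

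Killer lectin-like receptors are C-type lectin-like proteins on the surface of natural killer (NK) cells and of some T cells, and most of their genes lie together in the NK gene complex. Inhibitory members carry a motif in the cytoplasm that recruits phosphatases, and activating members pair with adaptor proteins that recruit kinases. Their ligands are mostly MHC class I molecules, MHC-like proteins that appear on stressed cells, or other lectins. In CD4 T cells they are known for appearing late in effector differentiation, and most of the family is associated with NK cells.

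The study compared RNA from Th1 cells of wild type mice (Chi3l1+/+) and of mice with a disrupted Chi3l1 gene in all cells (Chi3l1-/-), both on the C57BL/6J background. Naive CD4 T cells, isolated with a kit for CD4+CD25-CD62L+ cells that removes most other cell types, were activated by antibodies to CD3 and CD28 and skewed in vitro with IL-12, IL-2 and an antibody to IL-4. There was 1 library of each genotype, so no difference between genotypes could be tested. The mice were young adults per the study's methods, and the labels do not say how many gave cells to a library.

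Each table holds log2 of a normalized read count plus 1, and whole reads were rebuilt from these values. They summed to 70565831 in the library labelled WT and 62894439 in the library labelled KO. Below a normalized count of 200 at least 99.7% of values in each range of counts lay within 0.1 of a whole read, and read numbers above that count are estimates. The targeted gene, listed as Chil1, had 1 read in the library labelled WT and 103 reads in the library labelled KO, which goes against the labels. The genotypes are therefore given below as labelled, and every direction rests on those labels. The CD4 T cell markers fitted the cell type, with all 7 (Cd3d, Cd3e, Cd3g, Cd4, Cd5, Cd28 and Thy1) between 3975 and 32449 reads in both libraries.

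Reads of the Ly49 genes (Klra) and of the NKG2 genes (Klrc) are hard to assign, because their transcripts hold long near-identical stretches and reads with several alignments were counted. The stretches below show this for Klra8 (Ly49H, an activating receptor) and Klrc1 (NKG2A, an inhibitory receptor). Each line is a 100-base stretch of sense transcript, 5′ to 3′, from GENCODE M21 (GRCm38), and capitals mark bases that differ from the top line of its group. The Klra8 stretch is bases 487 to 586 of its 798 coding bases, in exons 5 and 6 between chr6:130119042-130122112 on the minus strand.
Klra8: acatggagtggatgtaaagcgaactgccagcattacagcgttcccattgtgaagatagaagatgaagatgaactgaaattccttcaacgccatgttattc
Klra9: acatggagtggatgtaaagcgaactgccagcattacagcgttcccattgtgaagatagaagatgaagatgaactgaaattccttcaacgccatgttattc
Klra10: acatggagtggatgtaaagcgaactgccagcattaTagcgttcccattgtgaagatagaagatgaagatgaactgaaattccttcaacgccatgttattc
Klra14-ps: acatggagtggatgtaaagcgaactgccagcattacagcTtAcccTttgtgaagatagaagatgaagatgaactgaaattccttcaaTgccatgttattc
Klra7: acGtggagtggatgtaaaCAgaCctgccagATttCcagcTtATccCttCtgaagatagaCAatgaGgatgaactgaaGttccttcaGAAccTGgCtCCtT

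Klra9 was identical to Klra8 here, Klra10 differed at 1 base, the pseudogene Klra14-ps at 4 and Klra7 at 25. The Klrc1 stretch is the last 100 of its 732 coding bases before the stop codon, in exon 6 at chr6:129674862-129674961 on the minus strand.
Klrc1: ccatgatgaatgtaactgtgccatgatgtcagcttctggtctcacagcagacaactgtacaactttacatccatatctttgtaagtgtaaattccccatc
Klrc2: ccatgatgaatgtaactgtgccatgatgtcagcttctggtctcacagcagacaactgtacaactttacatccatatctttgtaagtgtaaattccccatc
Klrc3: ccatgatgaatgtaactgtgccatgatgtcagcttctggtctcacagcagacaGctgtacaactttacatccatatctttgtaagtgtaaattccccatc

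Over whole transcripts, 14.4% of the 100-base windows of Klra8 were found unchanged in another Klr gene, and 55.2% were found with at most 2 mismatches. For Klrc1 these shares were 15.9% and 55.2%, and for Klra7 they were 2.29% and 29.8%. With at most 2 mismatches, Klra8 shared most windows with Klra14-ps (29.1%), ahead of Klra9 (24.2%), and identical windows were 13.7% and 0.649%. No window of Klrk1, Klrd1, Klrg1, Klre1, Klrb1 or Klrb1f was found in another Klr gene at either setting. Read numbers of the latter genes do not depend on how reads were split within the family, while those of single Klra and Klrc rows are uncertain.

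**Figure D1:**
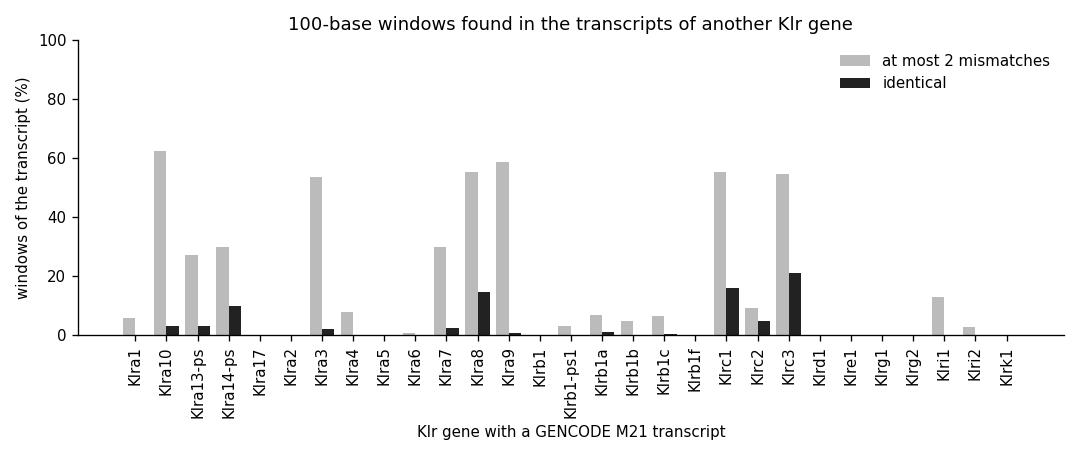
Share of the 100-base windows of each Klr gene's longest GENCODE M21 transcript (percent, vertical axis) that occur in a transcript of another Klr gene, for the 29 Klr rows with a transcript. Black bars are identical windows and grey bars allow at most 2 mismatches. Klra8 and Klrc1 both reach 55.2% with mismatches, and Klrk1 and Klrd1 are at 0.

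Most Klr genes were silent or close to it in these Th1 cells. Of the 36 rows, 18 were above 0 in the library labelled WT and 16 in the library labelled KO, against 63.2% and 62.9% of all rows. Above 0 in both libraries were 14 rows, while 4 were above 0 only in the library labelled WT, 2 only in the library labelled KO, and 16 in neither. With 10 reads or more in a library, 8 rows remained for WT and 7 for KO. A count of 0 allows up to 3 reads, so these rows were not detectable at this depth. In bulk RNA, fewer cells that express a gene and less RNA per cell cannot be told apart.

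The rows at 0 in both libraries were mostly Ly49 genes. They were Klra1, Klra2, Klra3, Klra4, Klra5, Klra6, Klra9, Klra10, Klra15, Klra17, Klra18, Klra19, Klra22, Klrb1-ps1, Klrc2 and Klrc3. Of the 20 Klra rows, 13 were at 0 in both. The Klra gene content differs between mouse strains, and 7 of the Klr symbols in the tables have no gene of that name among the GENCODE M21 chromosomes, which are those of C57BL/6J. These are Klra12, Klra15, Klra18, Klra19, Klra21, Klra22 and Klra23, and of them only Klra21 had more than 1 read in a library.

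**Figure D2:**
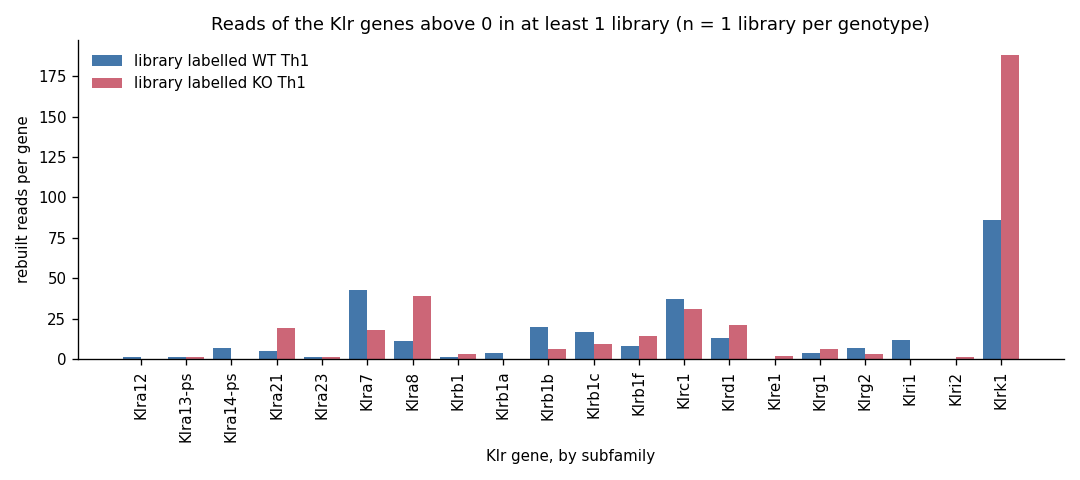
Rebuilt reads (vertical axis, from 0) of the 20 Klr genes above 0 in at least 1 library, for the library labelled WT Th1 (blue) and the library labelled KO Th1 (red), 1 library each. Klrk1 stands highest in both, at 86 and 188 reads, and no other gene passes 43 reads.

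Between the libraries the family did not move in 1 direction. On the deposited log2 scale, 9 Klr rows were higher and 11 were lower in the library labelled KO. Of the lower rows, Klra13-ps and Klra23 had 1 read in each library, so their -0.003 came from scaling alone. Over the 20 Klr rows above 0 in at least 1 library the median was -0.003, against -0.007 over all such rows of the tables. That family median equals the value of Klra13-ps and Klra23. Over Klr rows with at least 10 reads in at least 1 library it was 0.20. The median over the 36 rows was 0, which the 16 rows at 0 in both libraries fixed in advance. At or past 2-fold, 5 rows were higher (13.9%) and 6 were lower (16.7%), against 4.70% and 5.81% of all rows. Low counts change more often, so rows of a like level are the closer background. Among rows whose larger count was 10 to 200 reads, 12.4% were at least 2-fold higher and 16.6% at least 2-fold lower, and of the 10 Klr rows in this range 3 were higher (Klrk1, Klra8 and Klra21) and 3 were lower (Klra7, Klrb1b and Klri1). Of the 5 of them with a transcript, only Klrk1 held no window that occurs in another Klr gene with at most 2 mismatches. The share was 12.6% for Klri1 and 4.56% for Klrb1b, and Klra21 has no GENCODE transcript to compare. As GENCODE M21 holds no gene of that name, Klra21 may not be a separate gene. The higher rows may then not all be separate changes.

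Summed over the family, there were 278 reads in the library labelled WT and 362 in the library labelled KO. Scaled by the worth of a read, the ratio of KO to WT was 1.30, with a 95% exact binomial interval (Clopper-Pearson) from 1.11 to 1.53. Such intervals take reads as independent and cover counting error only, not the variation between mice or cultures. Without Klrk1 the sums were 192 and 174 reads and the ratio was 0.905, with an interval from 0.733 to 1.12.

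**Figure D3:**
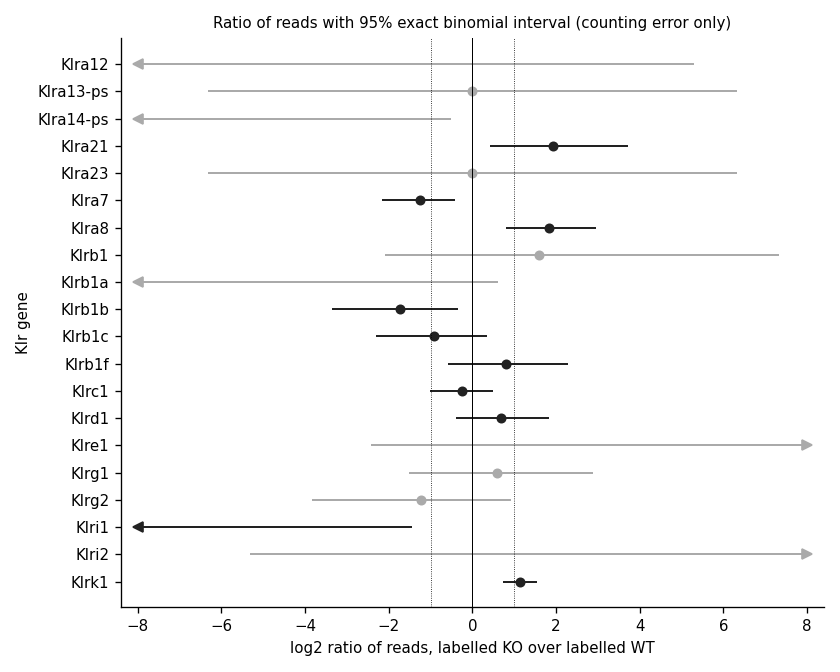
Log2 ratio of reads, library labelled KO over library labelled WT (horizontal axis), for the 20 Klr genes above 0 in at least 1 library. Points are ratios, lines are 95% exact binomial intervals of counting error, arrows mark genes at 0 in a library, black marks genes with at least 10 reads in at least 1 library, and dotted lines mark 2-fold. Klrk1, Klra8 and Klra21 lie wholly to the right of 0, and Klra7, Klra14-ps, Klrb1b and Klri1 wholly to the left.

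Klrk1 encodes NKG2D, an activating receptor for stress-induced MHC-like ligands that is found on NK cells and on activated CD8 T cells. It was the most abundant Klr row by reads, with a log2 value of 6.40 in the library labelled WT and 7.52 in the library labelled KO, from 86 and 188 reads. The difference was 1.12 on the log2 scale, and the ratio of reads was 2.18 (95% exact binomial interval from 1.68 to 2.85). Differences in these libraries followed the base composition of transcripts, with a median of 0.23 in the most AT-rich of 20 bins of well-expressed genes and -0.45 in the most GC-rich. The Klrk1 transcript is AT-rich, at 32.7% GC, and with this trend removed its difference was 0.89, below 2-fold. Klrk1 lies at chr6:129610323-129623864 on the minus strand (GRCm38).

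Klrd1 encodes CD94, the partner with which the NKG2 proteins of the Klrc genes form receptors for Qa-1. Klrd1 had 13 reads in the library labelled WT and 21 in the library labelled KO. Its ratio of 1.61 had an interval from 0.771 to 3.51, which includes no change. Klrc1, the inhibitory NKG2A, had 37 and 31 reads, with a ratio of 0.837 and an interval from 0.502 to 1.39. The inhibitory pair was thus listed above 0 in both libraries, and neither gene differed beyond counting error. The activating Klrc2 (NKG2C) and the related Klrc3 (NKG2E) were at 0 in both, although Klrc2 shares the stretch shown above with Klrc1. The log2 values were 3.76 and 4.41 for Klrd1 and 5.203 and 4.953 for Klrc1.

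Among the Ly49 receptors, Klra7 and Klra8 took most reads and went in opposite directions. Klra7 encodes Ly49G, an inhibitory receptor for MHC class I, and had 43 reads in the library labelled WT and 18 in the library labelled KO. Its ratio of KO to WT was 0.418, with an interval from 0.227 to 0.740. Klra8, the activating Ly49H, had 11 and 39 reads, a ratio of 3.54 with an interval from 1.78 to 7.66. Klra21 had 5 and 19 reads, a ratio of 3.79 with an interval from 1.37 to 13.0. It has no GENCODE M21 gene and may not be separate from Klra8 or another Klra row.

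On the deposited scale Klra8 went from 3.54 to 5.28 and Klra21 from 2.54 to 4.27, so that both differed by 1.74. Klra7 went from 5.42 to 4.20, a difference of -1.22. The pseudogene Klra14-ps, which lies between Klra8 and Klra7, had 7 reads in the library labelled WT and 0 in the library labelled KO, at least 2.34-fold lower against the floor of 3 reads in that library if the 7 reads are taken as exact. With their counting error, the interval of its ratio reached up to 0.693. Klra14-ps shares 23.3% of its windows with Klra8 at up to 2 mismatches, so the reads of these 2 rows are uncertain one by one. Klra13-ps and Klra23 had 1 read in each library, and Klra12 had 1 read in the library labelled WT. Summed over all 20 Klra rows, there were 69 and 78 reads, with a ratio of 1.13 (interval from 0.806 to 1.58). On the log2 scale this was 0.175, against 1.204 without Klra7 and -0.098 over the Klra rows that GENCODE holds. The sum depends less on how reads were split, but a read with several alignments may enter it more than once. The interval does not cover this. Within that limit the Ly49 total did not differ beyond counting error. The intervals of Klra7, Klra8, Klra14-ps and Klra21 left out no change, but they do not cover how reads were assigned. Whether the make-up of the Ly49 genes changed was not tested.

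The Nkrp1 receptors (Klrb) bind other lectins of the complex or, for some, have no ligand known with certainty. Klrb1c encodes NK1.1, the antigen by which NK cells of C57BL/6 mice are commonly stained. It had 17 reads in the library labelled WT and 9 in the library labelled KO, a ratio of 0.529 whose interval from 0.208 to 1.25 includes no change. Klrb1b, an inhibitory receptor for the lectin Clec2d, had 20 and 6 reads and was 3.34-fold lower in the library labelled KO, with an interval of the ratio of KO to WT from 0.0984 to 0.773. Klrb1f had 8 and 14 reads, and its ratio of 1.75 had an interval from 0.684 to 4.81. The genes Klrb1b and Klrb1c share exonic sequence on the same strand with the annotated Gm44511, so that their reads can overlap with that gene.

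The remaining Klrb rows held few reads. Klrb1a had 4 reads in the library labelled WT and 0 in the library labelled KO, and its interval reached up to 1.51. Klrb1 had 1 and 3 reads, which put it at a difference of 1.004, or 0.81 with the trend of base composition removed, with an interval of the ratio from 0.241 to 157. Summed over the 6 Klrb rows, there were 50 reads in the library labelled WT and 32 in the library labelled KO, with a ratio of 0.639 and an interval from 0.397 to 1.02.

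Klri1 is an inhibitory receptor that pairs with Klre1, and its activating relative is Klri2. Klri1 had 12 reads in the library labelled WT and 0 in the library labelled KO, at least 4.01-fold lower against the floor of 3 reads in that library if the 12 reads are taken as exact. With their counting error, the interval of its ratio reached up to 0.359. Its partner Klre1 had 0 and 2 reads and Klri2 had 0 and 1, all at or under that floor. Klri1 had the highest read number of any Klr row that was at 0 in the other library.

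Klrg1 is an inhibitory receptor for cadherins that marks terminally differentiated effector cells. It had 4 reads in the library labelled WT and 6 in the library labelled KO, a difference of 0.48 with an interval of the ratio from 0.355 to 7.22. Klrg2, which lies apart from the NK gene complex at chr6:38625693-38637242 on the minus strand, had 7 and 3 reads, a ratio of 0.428 with an interval from 0.0714 to 1.87. Its difference of -1.01 was -0.80 with the trend of base composition removed. Neither gene differed beyond counting error.

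The order of the Klr genes by level differed between the libraries and depended on the length used. Per kb of all annotated exons merged, Klra7 was highest in the library labelled WT, with 32.9 normalized counts per kb, followed by Klrc1 with 18.1, Klri1 with 13.8 and Klrk1 with 11.6. In the library labelled KO, Klra8 was highest with 32.0 normalized counts per kb, followed by Klrk1 with 25.3, Klrd1 with 15.8 and Klrc1 with 15.1. The merged exons of Klrk1 span 7.18 kb, but its longest transcript has 3259 bases. Per kb of the longest transcript, a length chosen after seeing the data, Klrk1 had 25.6 normalized counts in the library labelled WT, below Klra7 with 37.7. On that length it was highest in the library labelled KO, with 55.9 against 32.0 for Klra8. Between neighbours in these orders the read numbers were small and no test was made. Klra21 has no annotated length and stands in neither order.

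**Figure D4:**
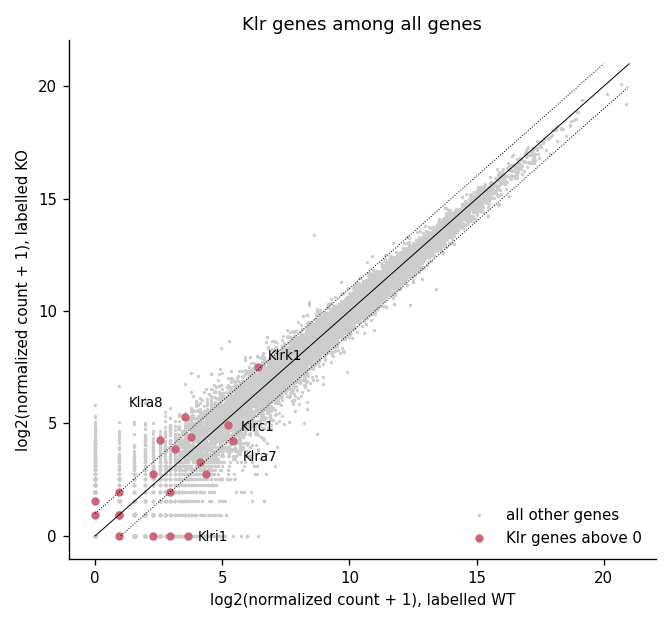
Log2(normalized count + 1) of every gene in the library labelled WT (horizontal axis) and the library labelled KO (vertical axis), with the 20 Klr genes above 0 in red, the line of equal values solid and 2-fold lines dotted. The Klr genes sit at the low end, up to 7.52 for Klrk1, where genes spread widely around the diagonal.

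Of the adaptors of activating receptors, Hcst had many more reads than any Klr gene, while Tyrobp and Fcer1g were nearer to Klrk1. Hcst (DAP10), which carries the signal of NKG2D, had 2051 reads in the library labelled WT and 1393 in the library labelled KO, a difference of -0.56 on the log2 scale. Tyrobp (DAP12), which pairs with activating Ly49 receptors, had 115 and 64 reads, a difference of -0.84. Fcer1g, which pairs with NK1.1, had 295 and 181 reads, a difference of -0.70. All 3 adaptors were lower in the library labelled KO, where Klrk1 and Klra8 were higher. Of the 6 myeloid markers, 5 were also lower there and 1 was higher. The part of myeloid cells in the adaptor differences was not tested. With the trend of base composition removed, the differences were -0.30 for Hcst, -0.66 for Tyrobp and -0.65 for Fcer1g. Of the 12 genes of adaptors and proximal signalling, 7 were higher and 5 lower, none was past 2-fold, and the median difference was 0.04.

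Among the ligand genes, those of NKG2D that were above 0 had more reads in the library labelled KO, while Raet1e and H60c were at 0 in both. The Raet1 genes encode Rae-1 proteins, and Raet1d had 4 reads in the library labelled WT and 25 in the library labelled KO, a ratio of 6.24 with an interval from 2.15 to 24.7. Raet1a had 4 and 15 reads and Raet1b had 4 and 14, and the sequences of these genes are so alike that their reads are uncertain. Unlike Raet1d, the rows Raet1a, Raet1b and Raet1c have no GENCODE M21 transcript of that name, and they may not be separate genes. Ulbp1 (MULT1) had 303 and 451 reads, a ratio of 1.49 with an interval from 1.28 to 1.72. H60b had 30 and 52 reads, a ratio of 1.73 with an interval from 1.08 to 2.81.

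Ligands of other Klr receptors went in either direction. H2-T23, which encodes Qa-1, the ligand of CD94 with NKG2A, had 22426 and 29128 reads and a difference of 0.38. Clec2d, the ligand of Klrb1b, had 198 and 175 reads and a difference of -0.18, and Clec2i, a ligand of Klrb1f, had 534 and 550 reads and a difference of 0.04. Of the 21 ligand genes in the tables, 5 were at least 2-fold higher and 1 was at least 2-fold lower, against 4.70% and 5.81% of all rows. Among rows whose larger count was 10 to 200 reads, these shares were 12.4% and 16.6%. The 5 were Raet1a, Raet1b, Raet1c and Raet1d, whose reads are uncertain one by one, and the cadherin Cdh4 with 0 and 7 reads. The lower gene was Clec2g, from 2 reads to 0. Raet1c, Cdh4 and Clec2g lie below that range of counts, so its shares are no like background for them. Of the 21 genes, 10 were higher, 5 were lower and 6 were at 0 in both libraries, which put the median at 0.

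Transcription factors and the cytokine receptor chain known to act on NK receptor expression were abundant and moved by less than 2-fold. Il2rb, a chain of the IL-2 and IL-15 receptors, had 102122 and 64462 reads and a difference of -0.67. Tcf7, which takes part in Ly49 expression, had a difference of -0.61, and Runx3 had -0.50. Prdm1 (Blimp-1) had 370 and 648 reads and a difference of 0.80, Zeb2 had 0.63 and Eomes had 0.37. Of the 9 genes, 4 were higher and 5 lower in the library labelled KO, with a median of -0.27.

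**Figure D5:**
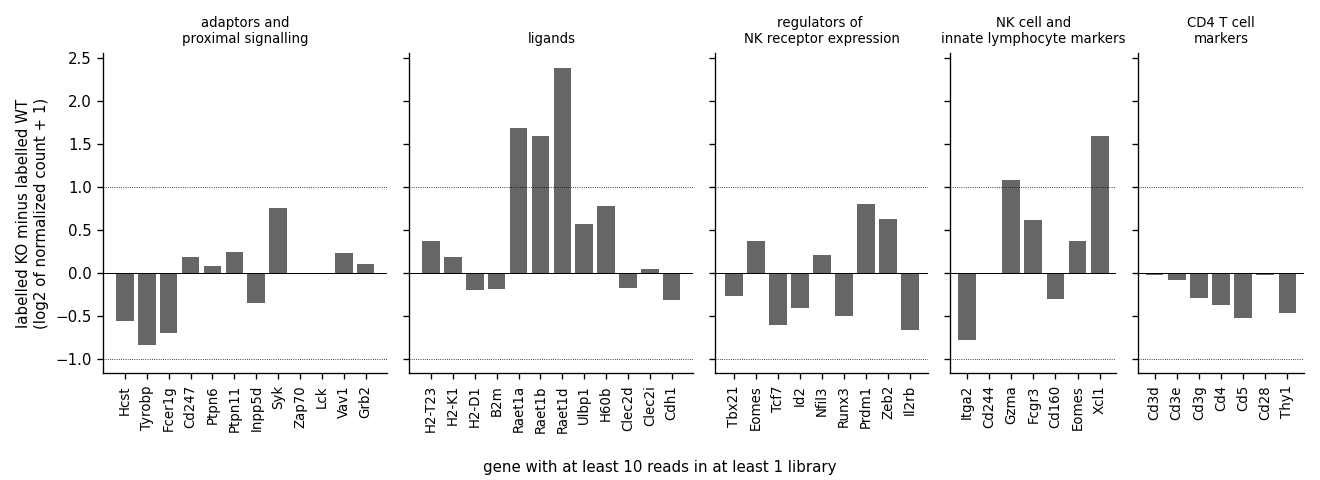
Difference of the library labelled KO minus the library labelled WT, in log2 of normalized count plus 1 (vertical axis), for genes with at least 10 reads in at least 1 library, in 5 lists. Dotted lines mark 2-fold. Hcst, Tyrobp and Fcer1g are below 0, the Raet1 genes are past 2-fold above it, and all 7 CD4 T cell markers are at or below 0.

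Markers of NK cells and other innate lymphocytes differed in direction. Ncr1, which encodes NKp46, was at 0 in the library labelled WT and had 6 reads in the library labelled KO. The interval of its ratio began at 1.18. Xcl1 had 12 and 38 reads, a ratio of 3.16 with an interval from 1.62 to 6.65, and Gzma had 24 and 52 reads, a ratio of 2.16 with an interval from 1.31 to 3.67. With the trend of base composition removed the difference of Gzma was 0.89, below 2-fold. Itga2 (CD49b) went from 11 to 6 reads, Cd244 had 15 in both, Fcgr3 went from 12 to 19, and NK1.1 went from 17 to 9 reads as given above. Cd160 had 369 and 300 reads, a ratio of 0.812 with an interval from 0.695 to 0.948. Of the 8 markers in the tables, 3 were at least 2-fold higher (Ncr1, Xcl1 and Gzma) and none was at least 2-fold lower, against 4.70% and 5.81% of all rows. Among rows whose larger count was 10 to 200 reads, these shares were 12.4% and 16.6%. Ncr1 lies below that range of counts, and Cd160 and Eomes lie above it. The summed reads of the 8 markers were 2552 and 3173, most of them from Eomes, which T cells also express.

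CD8 T cells also carry NKG2D. Cd8a had 288 and 437 reads, a ratio of 1.52 with an interval from 1.30 to 1.76, while Cd8b1 had 549 and 396, a ratio of 0.720 with an interval from 0.631 to 0.821. The summed reads of these markers were 837 and 833. Of the list for γδ and NKT cells, only Sox13 and Zbtb16 are in the tables, with 21 and 33 reads for Sox13 and 1 and 0 for Zbtb16. The part of NK cells or CD8 T cells in the differences of Klrk1, Klra7 and Klra8 was not tested.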

How the data were processed

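RNA of 2 libraries, 1 per genotype, was analysed, and groups were taken from the sample titles. Polyadenylated RNA was sequenced from both ends. The authors used TopHat and edgeR with the mm10 build, per the submitters' processing notes, counted reads with a single and with several alignments, and applied a global normalization. The annotation is not given in the sources used here, nor whether counting used strand. The deposited values are in log2 units, read from the values themselves as log2 of a normalized count plus 1.

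Whole reads were rebuilt by a grid search for the worth of 1 read in 7 ranges of normalized counts, which gave 0.9320 to 0.9700. Differences are the deposited value of the library labelled KO minus that of WT, without further scaling. With 1 library per genotype no test was run, and ratios have Clopper-Pearson intervals. Gene positions, exon lengths, GC content and shared windows came from GENCODE M21 (GRCm38, the same build as mm10), which held 29 of the 36 symbols. Named were all Klr rows above 0, and list genes past 2-fold with at least 10 reads or that are partners of a named Klr gene. Cdh4, Clec2g, Raet1c, Ncr1 and the markers of other cells, with Cd69, Clec12a and Olr1, were named after their values were seen. The members and lists were chosen with earlier results of these data known. Scripts were tested on simulated data. Scripts ran in Python 3.11.15, with intervals from scipy 1.17.1. The result of the list of B cell markers is not reported here.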

Additional observations from a re-analysis of the deposited data

How the results depend on the processing

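No paired analysis was possible because each genotype has 1 library, and for the same reason no library could be left out. The number of Klr genes above 0 stayed within 1.5 times with a minimum of 3 reads and fell to 8 (labelled WT) and 7 (labelled KO) with a minimum of 10. The 5 genes at least 2-fold higher in the library labelled KO became 3 with a pseudocount of 8, with the GC trend removed or with a minimum of 10 reads, 8 at 1.5-fold and 2 at 3-fold. The 6 genes at least 2-fold lower became 1 with a pseudocount of 8 and 3 with a minimum of 10 reads. The median difference of the 20 genes above 0 was -0.00 as deposited and 0.40 after quantile normalization. With a minimum of 10 reads in at least 1 library it was 0.20. The summed Klra log2 ratio of 0.18 was 1.204 without Klra7, and that of the remaining Klr genes, 0.86, was -0.13 without Klrk1. For Klrc1 no sum was left, since Klrc2 and Klrc3 were at 0. Of 100 recomputed values of single genes, none past 2-fold changed sign and 1 left its counting interval (Klri1, -1.29 with a pseudocount of 8). The removal of the GC trend and the sum over annotated Klra rows were chosen after seeing the data. Depth limits most Klr rows, since only 10 of 36 had 10 reads or more in a library.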

Other observations

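The NK gene complex also holds C-type lectin genes of other cells. Clec7a (Dectin-1), a receptor of myeloid cells, had 46 reads in the library labelled WT and 20 in the library labelled KO, so that the ratio of KO to WT was 0.434 and its 95% exact binomial interval ran between 0.243 and 0.749. Clec12a, another myeloid lectin, had 9 and 0 reads, and Olr1 had 11 and 17. Cd69, an early activation antigen of lymphocytes, had 182 and 204 reads, a ratio of 1.12 with an interval from 0.912 to 1.37. Of the 14 genes of this list, 7 were at 0 in both libraries and none was at least 2-fold higher in the library labelled KO. At least 2-fold lower were 3 (Clec7a, Clec12a and Clec2g), against 5.81% of all rows. Among rows whose larger count was 10 to 200 reads, 16.6% were at least 2-fold lower, but Clec12a and Clec2g lie below that range. Clec2g, which is also in the ligand list, had 2 and 0 reads.

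Markers of myeloid cells, most of which the isolation of naive CD4 T cells would remove, were at low read numbers. Of the 6 myeloid markers, 5 were lower and 1 was higher in the library labelled KO, with a median difference of -2.24. At least 2-fold lower were 4 of them, against 5.81% of all rows and 16.6% of rows whose larger count was 10 to 200 reads. The 4 were Lyz2 with 34 and 2 reads, Cd14 with 12 and 0, S100a8 with 5 and 0, and S100a9 with 3 and 0. S100a8 and S100a9 lie below that range of counts, so its share is no like background for them. Itgam had 163 and 93 reads, while Csf1r had 97 and 174. The lower reads of Clec7a and Clec12a thus stood beside lower Lyz2 and Cd14, and their part in each other was not tested.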
